A study of Mus musculus with 6 samples.

Results

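The editing sites of 3' UTRs in mouse fetal liver were compared between wild-type embryos and embryos with the E861A mutation of ADAR1. The site table lists 6012 positions where A was read as G, and 1815 of them are placed in a 3' UTR. A site was taken where the 3 wild-type libraries together and the 3 E861A libraries together each had at least 10 covering reads, which left 1688 sites under 349 gene names and put 127 aside. These 1688 sites are part of 3883 tested sites at all locations. All embryos were C57BL/6 at embryonic day 12.5, and RNA came from single-cell suspensions of whole livers, so that blood precursors, hepatoblasts and stroma were sequenced together. The wild-type group held liver 2 (male) and livers 15 and 17 (female). The E861A group, homozygous for the mutation (Adar1E861A/E861A), held livers 6, 16 and 19 (all male), so sex is partly tied to genotype. The numbers name separate livers, and the labels name no litter. Markers of erythroid cells (13899 to 42604 summed CPM, counts scaled to a common library size) and of hepatoblasts (15149 to 27516 CPM) were present in each library, and 4 neuronal genes summed to at most 6.58 CPM.

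ADAR1, the product of Adar, binds double-stranded RNA and turns adenosine into inosine, which a sequencer reads as G. E861A changes 1 residue of its catalytic domain, and the mutant protein binds RNA without editing it. In mouse, 3' UTRs are a common place for such duplexes, because a pair of short interspersed repeats lying in opposite orientations in 1 UTR can fold onto each other. Unedited duplexes of this kind are known as ligands of the cytosolic sensor MDA5.

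Sites with high wild-type levels are printed first, with their surroundings. In each line the capital in the first run is the edited A, printed 5′ to 3′ on the strand of the RNA with 10 bases on each side, and the partner run is the stretch of the same strand that best pairs with it, with the base opposite the A in capitals. The pairs are shown because the opposite base, the base just 5′ of the A and the distance to the partner return in the results. Sequences were read from the reference genome NCBIM37, and all positions are in that build.

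Rbbp4 (chr4:128987218-128987238, minus strand): cagctacaatAggtgccacca
Rbbp4 partner (chr4:128987126-128987146): tggtggctccAattgtggctg
Rpa1 (chr11:75114507-75114527, minus strand): aacagaaattAtgtcacaagt
Rpa1 partner (chr11:75114071-75114091): acttgagacaCaatccctgtt
Mad2l1 (chr6:66490065-66490085, plus strand): aatgtgtgttAttgttccatt
Mad2l1 partner (chr6:66490839-66490859): aatgcagcagTaagacacatt
Rnf168 (chr16:32300364-32300384, plus strand): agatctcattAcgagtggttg
Rnf168 partner (chr16:32299965-32299985): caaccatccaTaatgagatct
Wdr76 (chr2:121368988-121369008, plus strand): agcccaggttAgctttgaact
Wdr76 partner (chr2:121370244-121370264): agttcaaggcCaacctcaggt
Optn (chr2:4942074-4942094, minus strand): attctgtggaAgttccatgtg
Optn partner (chr2:4941023-4941043): cacatggaacTtccacagaat

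Editing levels in 3' UTRs were low in every E861A library and higher in every wild-type library. The level of a site is the percentage of covering reads with the edited base. Over the 1675 sites with a read in each of the 6 libraries, wild type 2, 15 and 17 had a mean level of 4.94%, 8.40% and 6.56%, and E861A 6, 16 and 19 had one of 0.768%, 0.842% and 1.01%. The group means were 6.63% ± 1.73 and 0.874% ± 0.125 (SD, n = 3 each). The groups did not overlap, and the two-sided exact permutation test gave p = 0.1, the smallest that 3 libraries against 3 allow. Counted over reads instead of sites, 3.32%, 5.46% and 4.31% of covering reads were edited in wild type, against 0.389%, 0.357% and 0.461% in E861A, with group means of 4.36% ± 1.07 and 0.403% ± 0.053 (exact permutation p = 0.1). The edited E861A reads include 206 of 208 reads at the 3 sites of ENSMUSG00000082519, described below, which were near 100% in both genotypes.

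**Figure D1:**
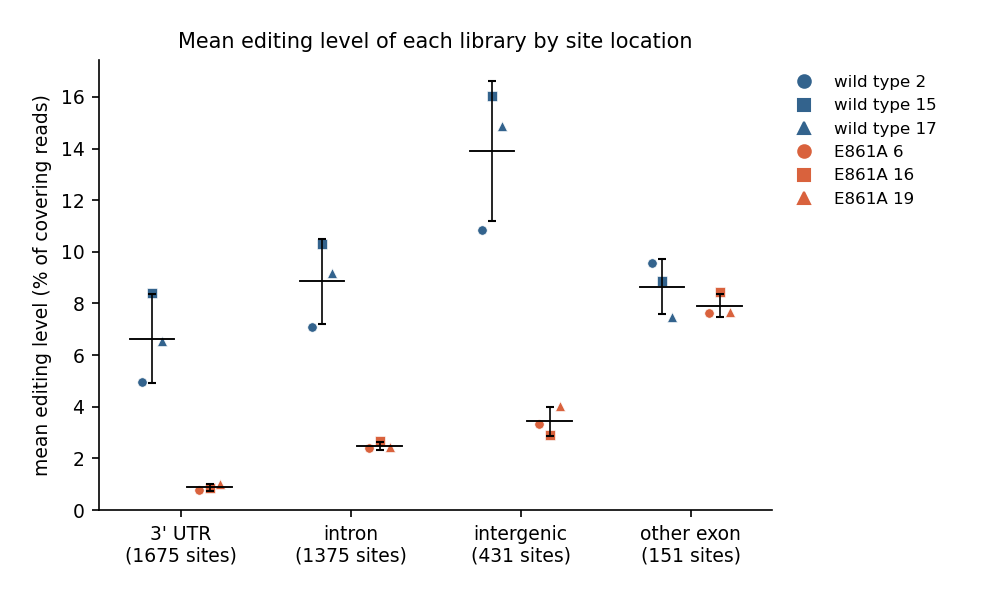
Mean editing level of each library (percent of covering reads, y axis) over the sites of each location that have a read in all 6 libraries; points are libraries, horizontal lines are group means and bars are ± SD of 3 libraries. In 3' UTRs the wild-type libraries lie at 4.94% to 8.40% and the E861A libraries at 0.768% to 1.01%. In other exons the genotypes overlap, and there the median site level in wild type is 0.329%, far below the wild-type mean of 8.65%.

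At single sites, 422 of the 1688 (25%) had a lower level in E861A and 1 had a higher level, by Fisher's exact test (two-sided) of the genotypes' summed reads, adjusted after Benjamini and Hochberg over all 3883 tested sites. Over all tested sites, 16.7% were lower and 0.155% higher. The 422 lower sites lay under 129 gene names. Summed reads ignore the spread between livers, and the replicates differed by more than counting error (chi-square per degree of freedom of 1.48 to 3.55 between libraries of a genotype over sites). A fit with each library as a replicate (edgeR's quasi-likelihood test, adjusted over the same sites) called 259 lower 3' UTR sites under 90 gene names (15.3%, against 8.91% of all tested sites) and 0 higher ones, and each of the 259 was among the 422. At 376 of the 422 sites every wild-type library was above every E861A library. The 422 were picked as lower from these same reads, so this count is a description and adds no support.

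**Figure D2:**
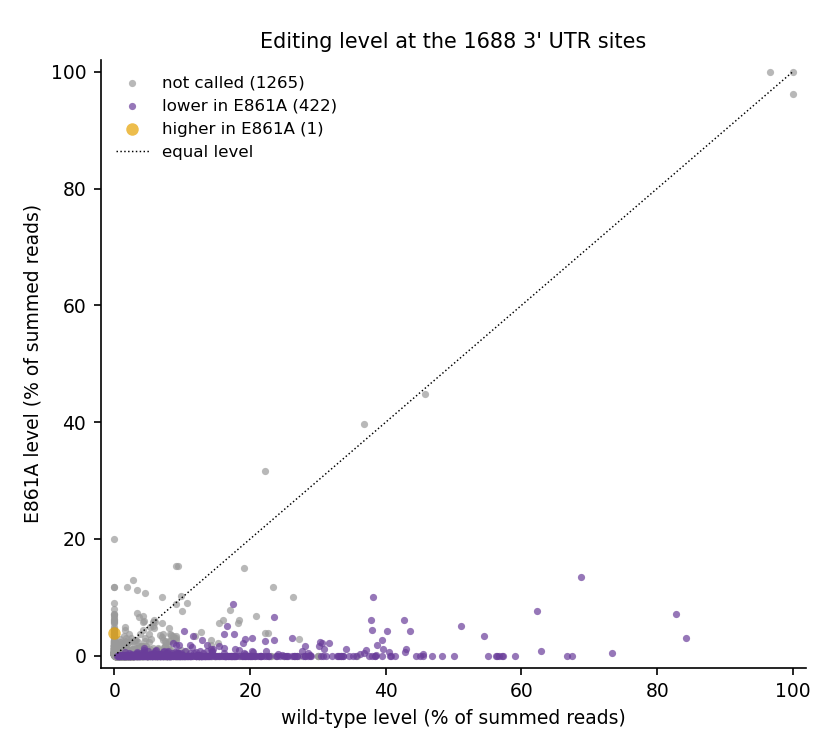
Level of each of the 1688 3' UTR sites in wild type (x axis) and E861A (y axis), both in percent of reads summed over 3 libraries; colours give the call by Fisher's exact test and the dotted line marks equal levels. The 422 lower sites lie along the x axis, with E861A levels of at most 13.5%, and a few uncalled sites sit on the line.

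The lower sites spanned a wide range of wild-type levels. Their median was 11.4% (quartiles 6.15% and 21%) and the highest was 84.3%. A wild-type level under 5% was seen at 86 of them, 5% to 10% at 104, 10% to 20% at 117, 20% to 50% at 97 and 50% or more at 18. In E861A their median level was 0, and 283 of the 422 (67.1%) had no edited read. Among all 1688 sites, 1024 (60.7%) had no edited read in E861A and 225 had none in wild type.

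A large share of the 1265 uncalled sites was hardly edited in wild type at this depth. Their median wild-type level was 1.25%, over a median of 118 reads, against 242 reads at the lower sites. The table marks sites as known, as newly found or as both, and how the marks were given is not stated in the sources used here. Of the 1247 sites marked only as known, 127 were lower (10.2%) and the median wild-type level was 1.14%. Of the 280 marked as both, 214 were lower (76.4%), and of the 161 marked only as newly found, 81 were (50.3%). The cut at 10 reads did not separate edited from unedited sites: the 30 sites with 10 to 12 reads in their shallower genotype had 16% and 0.697% of reads edited in wild type and E861A, and the 59 listed sites just outside, with 7 to 9 reads, had 18.1% and 1.48%.

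The site with the smallest p in Rbbp4, which encodes a histone-binding subunit of several chromatin complexes, lies at chromosome 4, position 128987228, 111 bases past the coding sequence. Edited reads there were 270 of 1446, 587 of 1852 and 384 of 1730 in wild type 2, 15 and 17, and 1 of 1824, 7 of 1292 and 2 of 1603 in E861A 6, 16 and 19. The summed levels were 24.7% (95% Wilson interval 23.5% to 25.9%) and 0.212% (0.115% to 0.390%). The edited A faces another A in the partner run printed above. Wilson intervals here cover counting error only.

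Rbm8a, which encodes a core subunit of the exon junction complex, had one of the highest wild-type levels. At chromosome 3, position 96436383, 52 of 87, 68 of 79 and 61 of 81 reads were edited in wild type, against 0 of 95, 1 of 48 and 0 of 54 in E861A, or 73.3% against 0.508%. Rhoa, a small GTPase of the cytoskeleton, was edited less and covered more. At chromosome 9, position 108239461, its libraries had levels of 2.42%, 11.8% and 7.45% in wild type, against 0, 0.234% and 0 in E861A (240 of 3261 against 2 of 3343 reads). Both sites differed by edgeR over libraries too (adjusted p = 1.63e-09 for each).

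At the best site of several other genes no edited read was seen in E861A. Mad2l1, a spindle checkpoint protein, had 144 of 235, 137 of 190 and 132 of 187 edited reads at chromosome 6, position 66490075, and 0 of 138, 0 of 73 and 0 of 137 in E861A, which allows a level of up to 0.862% (3 reads of the summed cover). Rnf168, a ubiquitin ligase of the DNA damage response, stood at 47.2%, 62.7% and 51.2% at chromosome 16, position 32300374, against 0 of 243 reads. Wdr76, a WD-repeat protein, stood at 29.7% (41 of 138), 72 of 144 reads and 42.2% (49 of 116) at chromosome 2, position 121368998, against 0 of 286 reads. In all 3 the wild-type libraries were far above the level that 3 edited reads would give in E861A (0.862%, 1.23% and 1.05%).

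At 3 further genes no edited read was seen in E861A either. Pum2, an RNA-binding protein that itself acts on 3' UTRs, had 145 of 649 edited reads in wild type at its 1 tested site (chromosome 12, position 8757075) and 0 of 512 in E861A. Ppp1r15b, a regulatory subunit of the phosphatase acting on eIF2alpha, had 126 of 774 against 0 of 658 at chromosome 1, position 135034587. Tmem69, a membrane protein, had 87 of 186 against 0 of 211 at chromosome 4, position 116225513. At Ovca2, a serine hydrolase, some edited reads remained: 114 of 295 against 6 of 330 at chromosome 11, position 74989846, with 2, 1 and 3 edited reads in the E861A libraries. The site of C330018D20Rik, also among the 12 with the smallest p, had the highest wild-type level of any lower site, 84.3%, against 3.10% in E861A (4 of 129 reads).

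**Figure D3:**
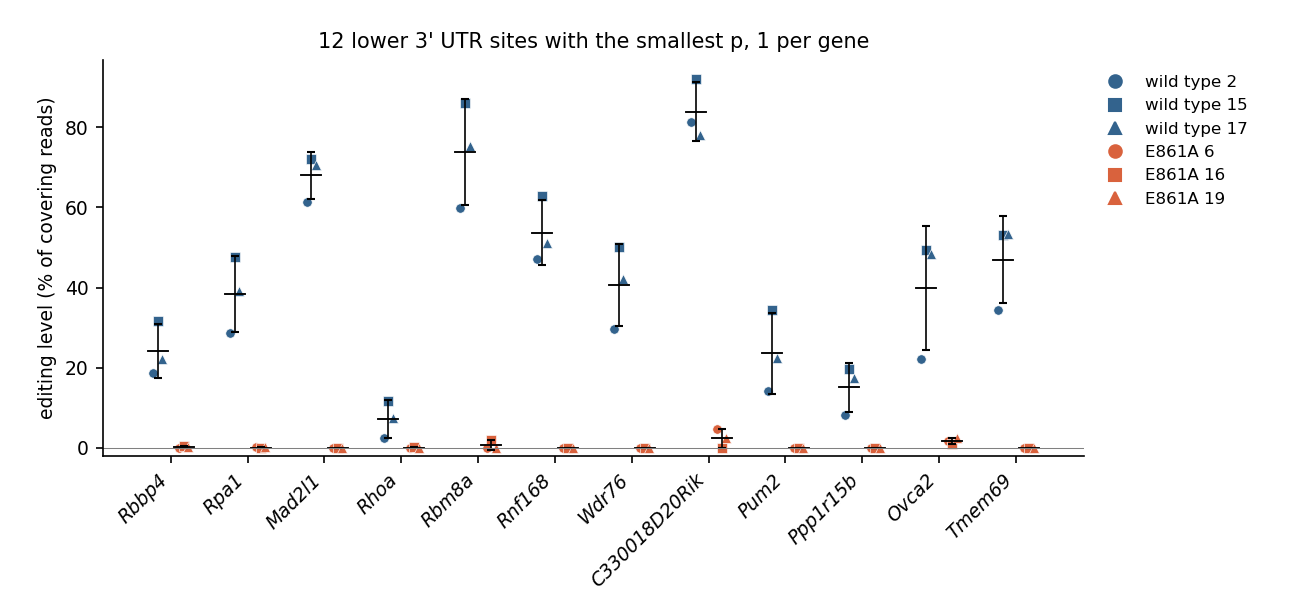
Editing level in percent of covering reads (y axis) in each library at the 12 lower 3' UTR sites with the smallest p, 1 per gene; points are libraries, lines are group means and bars are ± SD of 3 libraries. Wild-type libraries differ among themselves, with wild type 2 the lowest at 11 of the 12 sites, and the E861A libraries lie at or near 0.

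Wild-type libraries were not alike. Over the 366 lower sites with at least 20 reads in each wild-type library, the mean level was 10.6%, 17.8% and 14.0% in wild type 2, 15 and 17. Wild type 15 was the highest at 244 of the sites and wild type 2 the lowest at 231, and by gene the counts were 79 and 69 of 102. Adar itself stood at 56.7, 79.0 and 57.3 CPM in these livers, the summed level of 10 erythroid markers at 16930, 42604 and 22676 CPM and that of 8 dissociation-response genes at 138, 324 and 236 CPM. Wild type 2 is the male of the group. The part of sex, cell mixture and handling in these levels was not tested. With male livers only (wild type 2 against the 3 E861A livers), 253 sites were lower and the mean level differed by -3.78 percentage points, against -5.76 with all livers.

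Sites lay close together. The median distance to the nearest other site was 6 bases, and 83.2% had another within 50 bases. While 135 gene names held a single site, 46 held 10 or more. The 38 genes with at least 5 sites and at least 3 lower ones held 295 of the 422 lower sites, and 6 genes held 129: Rpa1 (28 of 50 sites lower), Mad2l1 (26 of 50), C330018D20Rik (21 of 37), Rnf168 (21 of 33), Wdr76 (17 of 29) and Ankrd28 (16 of 29). Neighbouring sites share reads, so counts of sites within a gene are not independent. The next 3 genes were Mdc1 (10 of 29), Nol10 (9 of 15) and 2010106G01Rik (8 of 9).

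Rpa1, the large subunit of the single-strand DNA-binding complex RPA, carried 50 sites within 558 bases, in 2 groups whose sequences can pair with each other. Over all of them 4.81%, 6.15% and 4.95% of reads were edited in wild type, against 0.793%, 0.542% and 1.09% in E861A. Its most edited site, position 75114517, lies 293 bases past the coding sequence, and its best partner, 436 bases away, holds the sites 75114079, 75114080 and 75114086. At 75114517 the libraries had 446 of 641, 569 of 786 and 488 of 757 edited reads in wild type, against 75 of 596, 40 of 393 and 75 of 415 in E861A, that is 68.8% against 13.5%. This was the highest E861A level of any lower site, and all 3 E861A libraries contributed to it.

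The facing sites of Rpa1 differed in what was left. At 75114086, 38.6% of wild-type reads were edited and 0.107% of E861A reads (2 of 1871). At 75114080, 6 bases away, the levels were 51.1% and 5.07%, and at the adjacent 75114079 they were 17.5% and 8.95%. At 75114079 the E861A libraries had 59 of 611, 23 of 515 and 63 of 494 edited reads, and the difference did not pass edgeR's quasi-likelihood test over libraries (adjusted p = 0.37), while those at 75114080 and 75114517 did (adjusted p = 6.97e-07 and 9.30e-06).

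Mad2l1 lost nearly all editing along its 3' UTR. Over its 50 sites 5.96%, 7.12% and 6.81% of reads were edited in wild type, against 0.167%, 0.158% and 0.264% in E861A, and 31 of the sites had no edited read in E861A. Of the 62 edited E861A reads counted over its sites, 8, 7, 10 and 8 were at the neighbouring positions 66490206, 66490207, 66490208 and 66490209, with levels of 30.7%, 9.09%, 13% and 18.9% in wild type, against 2.14%, 1.87%, 2.67% and 2.14% in E861A. In Rnf168, 8.84%, 14.6% and 12.2% of reads over 33 sites were edited in wild type, against 0.078%, 0.256% and 0.070% in E861A. Tmem69 had 267 edited of 1334 covering reads over its 7 sites in wild type, against 0 of 1564 in E861A.

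**Figure D4:**
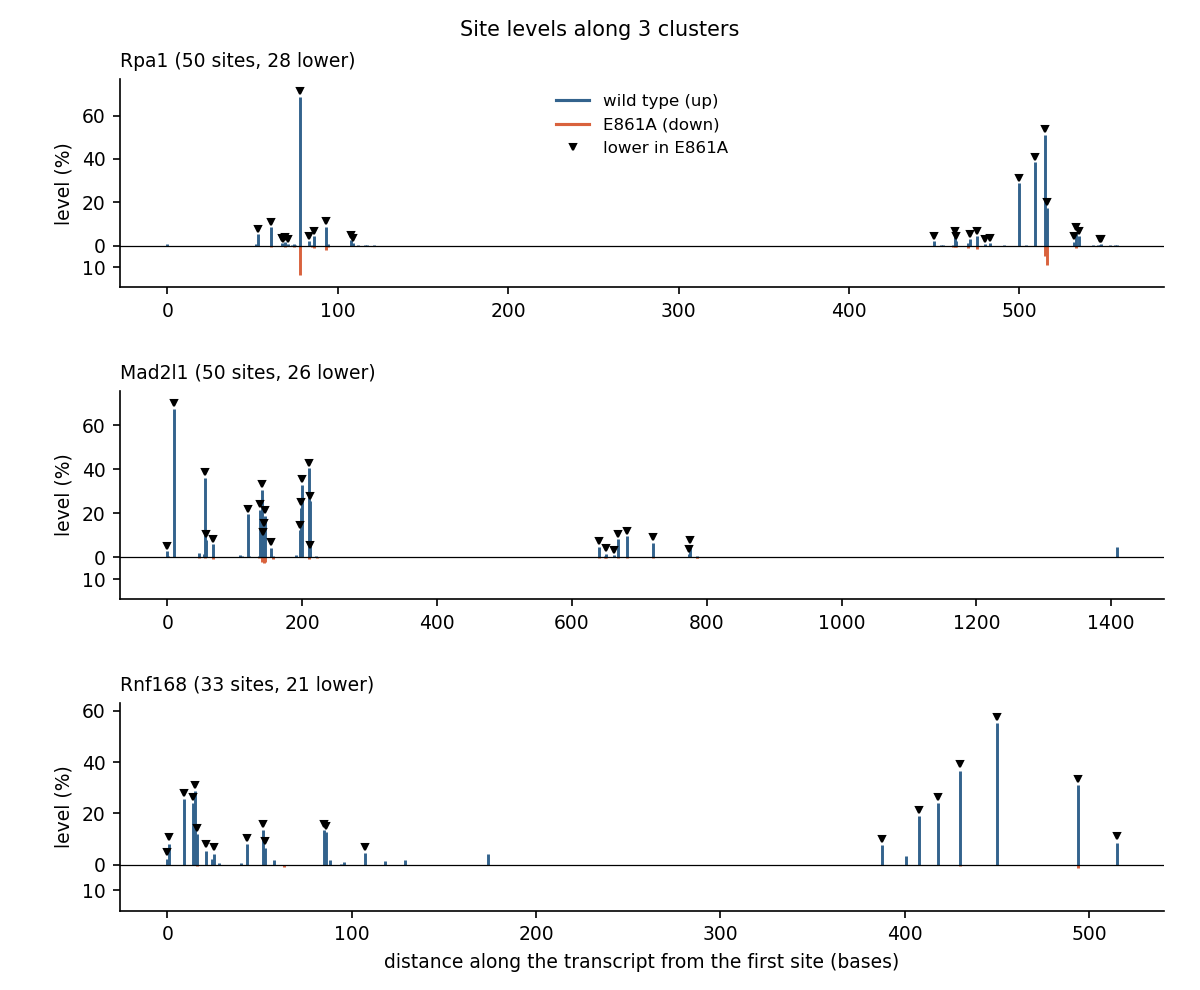
Editing level (percent of reads summed over 3 libraries) at each 3' UTR site of Rpa1, Mad2l1 and Rnf168 against the distance along the transcript from the first site (bases); wild type is drawn upward, E861A downward, and triangles mark lower sites. Each gene shows separated groups of sites, and Rpa1 keeps visible E861A levels, up to 13.5%, at a few positions.

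Residual editing at lower sites was uncommon. Of the 422, 31 kept a level of at least 2% in E861A, under 21 gene names, and 15 of these had an edited read in every E861A library, 4 of them in Rpa1. An inverted partner was found for 29 of the 31, and the base opposite the A was C at 17 and T at 12. These 31 were picked by their E861A level, so the split is a description. Oip5, a centromere protein, kept 2 of 81 and 1 of 36 edited reads at 2 of its 4 lower sites, which the depth hardly separates from 0.

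The single higher site was in Ankrd28, a regulatory subunit of the phosphatase PP6. At chromosome 14, position 32514637, 0 of 72, 0 of 64 and 0 of 71 reads were edited in wild type, against 4 of 78, 1 of 40 and 2 of 59 in E861A (0 against 3.95%, Fisher's exact test adjusted p = 0.0274). It did not pass edgeR over libraries (adjusted p = 0.136), and leaving out any 1 of the 3 wild-type libraries ended the call. At 16 other sites of Ankrd28 the level was lower in E861A.

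A few uncalled sites were as high in E861A as in wild type. Of 36 sites with at least 40 E861A reads and a level of 5% or more there, 10 were among the lower ones. The 3 sites of ENSMUSG00000082519, annotated as a pseudogene (1.09 to 2.24 CPM), had the edited base in 282 of 283 reads in wild type, against 206 of 208 in E861A. For 1 of the 3 the reference A is on the other strand than for the other 2, and none lies in a 3' UTR of GENCODE M1, the annotation used here. Whether the reads at these 3 sites come from editing was not tested. The site of 2610044O15Rik stood at 36.7% and 39.6% (72 of 196 and 80 of 202 reads). At Ttbk2 (position 120562688) and Wtap (position 13164877), 13% and 11.8% of 46 and 51 E861A reads were edited against 2.78% and 1.92% in wild type, and neither difference passed the test (Fisher's exact test adjusted p = 0.39 and 0.23). Over the 5 sites of Wtap, none of them called, 1.36%, 2.60% and 0% of reads were edited in wild type, against 5.38%, 3.51% and 9.03% in E861A. Over the 10 sites of Ttbk2, 29 of 403 reads were edited in wild type, against 21 of 525 in E861A.

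The deepest sites were those of Igf2, a fetal growth factor, with hardly any editing. At 4 of its 5 sites the level was at most 0.141% in either genotype. At position 149839178, chromosome 7, it was 0.713% in wild type, against 0.028% in E861A (88 of 12350 against 4 of 14063 reads), and it was the 1 lower site of the gene.

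Genes followed by name gave mixed depth. Klf1, the erythroid transcription factor, had 12.3%, 13.5% and 14.2% of reads edited over 6 sites in wild type, against 0 of 231 in E861A. Although each site was at 0 in E861A, 2 of the 6 passed Fisher's exact test and none passed edgeR over libraries, and the summed E861A cover per site was at most 43 reads. Optn, an autophagy receptor, had all 5 sites lower, with 7.21%, 11.6% and 9.59% of reads edited in wild type, against 0 of 1515 in E861A. Oip5 had 4 of 5 sites lower. Slc7a2, an amino acid transporter, had 12 of 513 edited reads over 5 sites in wild type, against 2 of 946 in E861A, and no site passed. Dffa had sites at other locations only, and Ctss, Mdm2, Mdm4 and Nup43 had no listed site.

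The base 5′ of the edited A was seldom G. Among lower sites it was T at 42.7%, A at 35.3%, C at 17.8% and G at 4.27%. Among the 1265 uncalled sites G stood there at 15.3%, and among 16129 unlisted A's within 50 bases of a site, on the same strand, at 23.6%, with T at 19.2%. By the 5′ base, the median wild-type level over all 1688 sites was 5.31% after T, 2.95% after A, 1.20% after C and 0.590% after G. Of the sites printed above, each of those in Rbbp4, Rpa1, Mad2l1, Rnf168 and Wdr76 follows T and that of Optn follows A, while Rpa1 75114086 (38.6% in wild type) follows G. The base 3′ of the A was G at 35.1% of lower sites and A at 32.2%, against 44.7% and 22.4% of uncalled sites and 30.1% and 28.8% of unlisted A's.

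Most sites lay in sequence that can pair with an inverted copy nearby. An inverted partner was counted where at least 40 bases round the site, at least 75% of them complementary, could pair with a stretch within 2000 bases. It was found for 364 of the 422 lower sites (86.3%), 69.2% of uncalled sites and 73.5% of all 1688. A repeat in the same orientation, searched in the same way, was found for 25.8% of the lower sites. With at least 60 paired bases the share of lower sites with an inverted partner was 65.9%. The median distance from a lower site to its partner was 514.5 bases, with 72 paired bases in the median. The Rbm8a, Rhoa and Pum2 sites above had matches of 32, 30 and 29 bases and were counted as having none.

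Editing was often listed on both arms. A listed site lay in the opposite arm, within 10 bases of the facing base, for 51.9% of lower sites with a partner and for 32.0% of uncalled ones. Lower sites were deeper (median wild-type cover 242 against 118 reads), and many lay in a few dense genes. The part of depth and site density in these shares was not tested. The base facing the A was T at 66.5% and C at 29.9% of lower sites with a partner. Uncalled sites were close to this, with T at 68.5% and C at 25.1%. Among unlisted A's with a partner it was T at 84.3% and C at 8.89%. Over all sites the median wild-type level was 4.76% opposite C and 2.56% opposite T. Pairing was read from the genome sequence, with no measurement of RNA structure.

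Sites in 3' UTRs were deeper than those in introns and between genes. The median wild-type cover was 134.5 reads in 3' UTRs against 32 in introns (1485 sites) and 33 between genes (444 sites). The share of lower sites was 25% in 3' UTRs, 7.61% in introns and 17.8% between genes. Where both genotypes had at least 50 reads the shares were 29.0%, 16.6% and 36%. The mean level over introns was 7.08%, 10.3% and 9.17% in wild type, against 2.39%, 2.66% and 2.42% in E861A. The 3' UTR mean minus the intron mean was -2.22 ± 0.355 percentage points in wild type and -1.62 ± 0.204 in E861A (exact permutation p = 0.1, the smallest possible). This difference of 0.60 between the genotypes turned to -0.759 with a minimum of 20 reads and to -0.756 with 50, so its direction depends on shallow sites, and without E861A replicate 19 it was -0.272. An inverted partner was about as common at intronic sites (73.3%), but a listed site in the opposite arm was found for 14.7% of those. Intronic sites were also shallower, and the part of depth in this share was not tested.

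By GENCODE M1, 1496 of the 1688 sites (88.6%) lay in an annotated 3' UTR on the strand of the A, 78 in another exon and 114 in no exon of that strand. The median distance from the end of the coding sequence was 1289 bases, with 1098.5 for lower and 1396 for uncalled sites. The 3' UTRs of lower sites were also shorter, with a median length of 2394 bases against 2966 for uncalled sites. At 8 sites the A was on the strand opposite to the gene.

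Genes that hold lower sites changed in both directions. By gene counts, 121 genes with a lower site were tested with edgeR, 8 rose (6.61%) and 21 fell (17.4%), with a median log2 fold change of -0.24, E861A over wild type. Over all 16511 tested genes 7.77% rose, 4.26% fell and the median was 0.04. Over the 308 tested genes with any 3' UTR site 16 rose, 30 fell and the median was -0.11. The 121 genes were chosen by their sites in the same libraries, so no test over the list is given. With sex as a term in the fit, 6 rose and 0 fell, and leaving out single libraries gave 3 to 34 genes that fell, 3 of them without wild type replicate 17 or without E861A replicate 16, 7 without wild type replicate 15 and 34 without wild type replicate 2. Without wild type replicate 17 or E861A replicate 16 the number that rose was 5. Shares over all tested genes under these other settings are not given. Whether the loss of calls is particular to these genes therefore cannot be told. In bulk RNA, fewer cells of a type and less RNA per cell cannot be told apart, and the erythroid marker sum was 16930 to 42604 CPM in wild type, against 13899 to 14820 CPM in E861A. The sum of 8 dissociation-response genes was 138 to 324 CPM in wild type and 546 to 1261 CPM in E861A, where 5 of the 8 rose, and that of 7 hepatoblast markers was 15149 to 19440 CPM and 18749 to 27516 CPM, where 3 of the 7 rose. Of the 10 erythroid markers 4 fell. The part of these shifts in the rises and falls was not tested.

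Among the genes that fell, Rpa1 stood at 204, 305 and 283 CPM in wild type, against 143, 135 and 124 CPM in E861A (log2 fold change -0.98, SE 0.18, edgeR adjusted p = 0.0143). Mad2l1 went from 116, 137 and 134 CPM to 91.4, 77.5 and 80.3 CPM (-0.63, SE 0.14, edgeR adjusted p = 0.0245). The libraries of the 2 genotypes did not overlap for either gene. Klf1 (-1.03), Rnf168 (-0.62), Wdr76 (-0.68), Mdc1 (-0.68), Pum2 (-0.63), Gen1 (-1.03), a resolvase of DNA junctions, and Gnl3l (-0.74), a nucleolar GTP-binding protein, also fell. Rbm8a (-0.0029, SE 0.16) and Ankrd28 (-0.20, SE 0.13), which also hold lower sites, did not pass the test, nor did Rbbp4 (-0.58, SE 0.18, edgeR adjusted p = 0.0808). The change of Rbbp4 was close in size to that of Mad2l1, so missing the threshold does not show that a gene was unchanged. A link between editing and expression was not tested.

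Among the genes with a lower site that rose, Slfn5 had the highest fold change. Slfn5, a Schlafen family member, stood at 2.39, 3.83 and 1.85 CPM in wild type, against 52.5, 58.5 and 65.1 CPM in E861A (log2 fold change 4.45, SE 0.28, edgeR adjusted p = 6.03e-05). Its 8 sites had 18 edited of 134 covering reads in wild type, against 18 of 4559 in E861A, so the level fell from 13.4% to 0.395% at an equal number of edited reads. Trim12c, a tripartite motif gene, had 21 of 899 against 10 of 12107 (log2 fold change 3.17), and Dtx3l, a ubiquitin ligase, 4 of 151 against 7 of 4386 (log2 fold change 3.79). H2-T24, a class I histocompatibility gene, had 21 of 169 against 2 of 1353 (log2 fold change 3.27). The others were Mpeg1 (1.48), Cebpg (0.82), Gla (0.88) and Sfxn2 (0.66). In Slfn5 and Dtx3l the wild-type cover was low, so each wild-type level rests on few edited reads.

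Genes of the editing and sensing machinery held no tested 3' UTR site. Only 308 of all 16511 tested genes held one, so its absence from lists this short is not a result about these genes. Of 19 tested genes for editing and double-stranded RNA binding 2 rose, among them Adar (56.7, 79.0 and 57.3 CPM in wild type, against 275, 344 and 334 CPM in E861A), and 4 fell. Adarb1, the other catalytically active editing enzyme, stood at 12.5, 9.02 and 8.95 CPM and at 7.04, 9.85 and 10.3 CPM, with overlapping groups. Of 14 genes for cytosolic sensing 10 rose and 1 fell, and all 16 listed interferon targets rose. Of 11 tested genes for mRNA decay and 3' UTR processing 0 rose and 1 fell, Tnrc6b, which held 1 uncalled site. Over all 16511 tested genes, 7.77% rose and 4.26% fell.

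Cover at the sites was compared with the reads of the gene. For each of 273 genes with enough reads, the mean cover of its 3' UTR sites was divided by the gene's read count. Rpa1 had 69.3, 60.3 and 63.4 reads of site cover per 1000 gene reads in wild type, against 107, 98.1 and 83.4 in E861A. Rnf168 had 29.2, 28.4 and 28.5 against 51.6, 39.3 and 41.0, and Nol10, a nucleolar protein, 51.0, 55.0 and 51.0 against 79.0, 87.0 and 82.1. In each of the 3 every E861A library was above every wild-type library. In C330018D20Rik, Ankrd28 and 2010106G01Rik, which also hold 8 or more lower sites, the genotypes overlapped. Their ratios of the E861A to the wild-type mean were 1.10, 1.14 and 0.93.

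Over all 273 genes this was so for 47 (17.2%), and the reverse order was seen for 28. It was so for 9 of 27 genes with 5 or more lower sites (33.3%, median ratio 1.14), and the reverse order was seen for 1. With 1 to 4 lower sites, 20 of 91 genes (22.0%, median ratio 1.06) had this order and 10 the reverse. Without a lower site, 18 of 155 (11.6%, median ratio 1.04) had it and 17 the reverse. A lower call itself depends on E861A cover, so these groups are not independent of the ratio. No test of these shares is given. The 9 genes with 5 or more lower sites include Mad2l1, Wdr76, Mdc1, Tmem69 and Optn. Ebna1bp2, with 6 lower sites, went the other way, at 12.3, 7.94 and 7.30 against 6.33, 4.74 and 5.58. Leaving out libraries can only keep or raise the count of 47 (79 without wild type replicate 2, 78 without E861A replicate 19, 77 with male libraries only), and likewise the 9 genes with 5 or more lower sites (17 without wild type replicate 2), so these counts say nothing about stability. How the aligner treated reads with mismatches is not given in the sources used here.

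**Figure D5:**
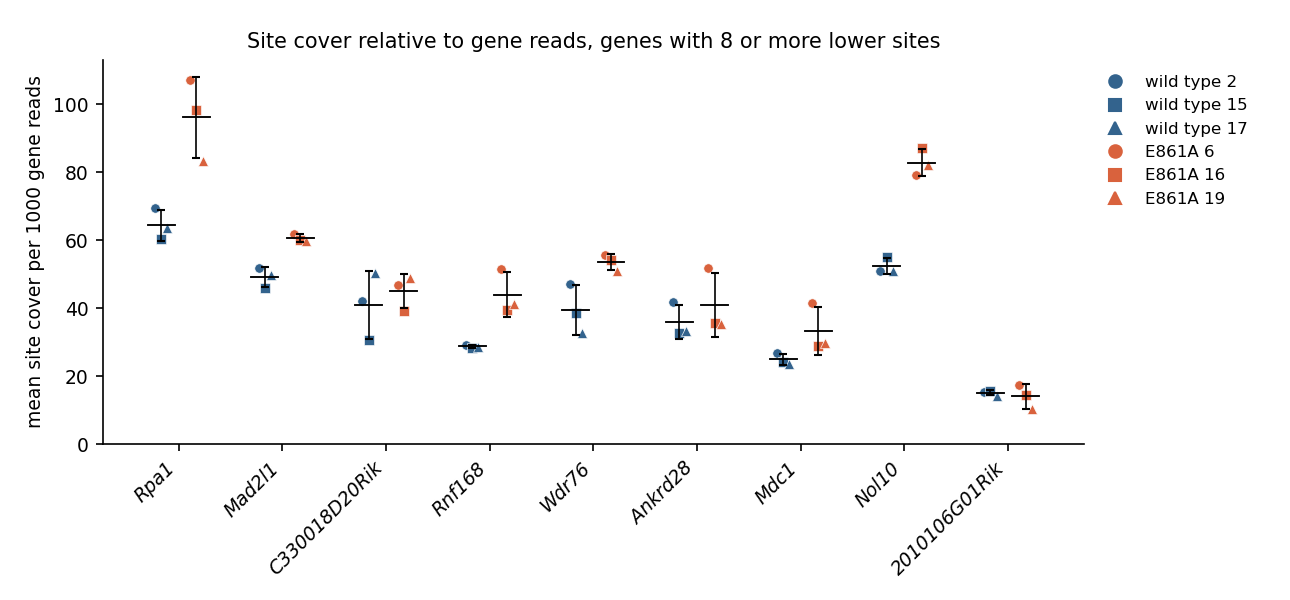
Mean cover of the 3' UTR sites of a gene per 1000 reads of that gene (y axis) in each library, for the 9 genes with 8 or more lower sites; points are libraries, lines are group means and bars are ± SD of 3 libraries. In Rpa1, Mad2l1, Rnf168, Wdr76, Mdc1 and Nol10 every E861A library lies above every wild-type library.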

How the data were processed

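Per the file headers, the deposited site table gives each library's covering reads as counts and its editing level as a fraction, together with 1 p-value of the authors for some sites. Raw counts per gene were deposited by the authors in a second table. Tools named in the submitters' processing notes, with no role stated, include BWA, HTSeq, SAMtools (0.1.19), Bowtie2 (2.1.0.0), TopHat2 (2.0.8) and Trimmomatic (0.30), with builds NCBIM37 and mm9. Strandedness is not given in the sources used here.

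Edited reads were the level times the cover, within 2.32e-06 of a whole number. A minimum of 10 reads per genotype left 3883 sites, compared by Fisher's exact test (SciPy 1.17.1) with Benjamini-Hochberg adjustment and a call at 0.05. Gene counts (35280460 to 43733715 reads a library) were fitted with edgeR 4.0.16 (filterByExpr, TMM, robust quasi-likelihood). The fits were tested on simulated data. For sites, the simulated levels had no spread between libraries of a genotype, unlike the real ones. That run therefore cannot show how the site calls hold up under such spread. Inverted partners were found by local alignment in Biopython 1.88 of 101 bases round the site (match 2, mismatch -3, gap -5 and -2). Of the 349 gene names, 259 matched a counted gene by symbol, 41 by Ensembl ID, 13 by position and 36 by none.

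Named sites were the 12 lower ones with the smallest p, 1 per gene; the 12 genes with most lower sites; the higher sites; the 5 highest in each genotype with at least 30 reads; the 5 deepest; sites of followed genes; and up to 15 genes with a lower site that rose or fell. The partner search, the cover ratio, the sites with 2% or 5% left, and genes outside this rule were added after values were seen. The members, lists and rules were chosen with earlier results of these data known. Not every gene this rule names is reported here. The edgeR and permutation p-values measure the spread between these 6 livers, and those of Fisher's exact test measure counting error in the summed reads.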

Additional observations from a re-analysis of the deposited data

How the results depend on the processing

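The number of lower 3' UTR sites, 422, was 402 to 425 with a minimum of 20 or 50 reads or with A on the strand of the gene only, 259 by edgeR over libraries, 253 with male libraries only, and 328 to 441 when 1 library was left out. With the p-values of the authors, adjusted over the 3' UTR and other sites that have one, it was 91, and with only the sites marked as known alone it was 127 (chosen after seeing the data). The 1 higher site became 0 by edgeR and with male libraries, and 0 to 2 when 1 library was left out. The mean level and the share of edited reads stayed lower in E861A under each of their alternatives, at -6.53 to -4.81 percentage points for the mean level without 1 library. The difference between 3' UTR and intron means, 0.60, was -0.759 with a minimum of 20 reads, -0.756 with 50, and -0.272 to 0.633 without 1 library. Of genes with a lower site, 21 fell in the fit used, 0 with sex as a term, 32 by DESeq2, and 3 to 34 without 1 library, while 8 rose and 5 to 8 did so without 1 library. Shares over all tested genes under these other settings are not given. Of the 77 named lower or higher sites (a site named under several rules counted once), 21 lost their call by edgeR over libraries, 21 with male libraries, and 5 to 10 without 1 library. No paired analysis was possible because no replicate number occurs in both genotypes. Depth limits sites with few E861A reads, such as those of Klf1.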

Other observations

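A p-value of the authors is given for 1053 of the 1688 sites, each with at least 20 reads in every library. Of these, 263 had a p-value of the authors under 0.05, and 230 of the 263 were among the lower sites here. A p-value of the authors was present for 339 of the 422 lower sites.

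The table's gene name 03/02/14, a symbol turned into a date, has a lower site with editing left, at chromosome 17, position 33824244 (17.7% in wild type and 3.74% in E861A). 4 further lower sites that kept editing were in Psma3 (37.8% against 6.10%), a proteasome subunit, Trove2 (62.3% against 7.69%), an RNA-binding protein of Ro particles, Cds2 (43.5% against 4.29%), an enzyme of phospholipid synthesis, and Fam32a (23.6% against 6.72%).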
